A study of Bos taurus with 3 samples.

Results

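The IGFBP6+ KRT15+ cells described here are keratinocytes of the rumen, the large fermentation chamber of the cattle stomach. They were chosen by their transcripts: at least 2 unique molecular identifiers (UMIs, each 1 captured transcript) of IGFBP6, at least 1 UMI of KRT15, 0 UMIs of the gap junction gene GJA1 and 0 UMIs of the cycling genes TOP2A and MKI67 summed. By this rule 3482 of 20728 epithelial cells were members. The cells came from the ventral sac of the rumen of 3 adult lactating Holstein dairy cows, with 1 single-cell library (10x Chromium 3' v3) per cow and no treatment. The tissue was freed of muscle, dissociated with trypsin, collagenases, dispase, hyaluronidase and DNase, and dead cells were removed, so the libraries hold the cells that survived these steps. The authors had kept clusters that carried KRT14, KRT5 or KRT19 and discarded the other cell types.

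The rumen wall is lined by a stratified squamous epithelium that absorbs the volatile fatty acids (VFAs) made by microbes and burns part of them. Its basal cells sit on the basement membrane through hemidesmosomes, divide, and build a keratin skeleton of KRT5 with KRT14 or KRT15, and their offspring move up, change keratins and finally cornify. IGFBP6 is a secreted protein that binds insulin-like growth factors, IGF2 above all, and keeps them from their receptor. KRT15 is a type I keratin of basal cells, and in hair-bearing skin it marks quiet stem cells of the follicle.

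The 3 libraries held 3369, 7401 and 9958 cells with 38912809, 94856658 and 104189434 UMIs. Cell barcodes were shared by 5 cells of cows 1 and 2, 10 of cows 1 and 3, and 20 of cows 2 and 3. The cow 3 library stood apart in IGFBP6 itself. Over all its cells it carried 1.83 IGFBP6 UMIs per 10000 UMIs, against 0.375 in cow 1 and 0.504 in cow 2, so values without cow 3 are given beside the results that rest on it. IGFBP6 was found in 17.5%, 27.8% and 57.8% of the cells of cows 1, 2 and 3, and in 11.3%, 15.3% and 43.5% once each cell had been thinned to 5000 UMIs.

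Members made up 150 of 3369 cells in cow 1 (4.45%, 95% Wilson interval 3.81% to 5.20%). In cow 2 they were 767 of 7401 cells (10.4%, 9.69% to 11.1%), and in cow 3 2565 of 9958 cells (25.8%, 24.9% to 26.6%). The intervals cover counting error only and did not overlap, and the mean over cows was 13.5% ± 11 (SD, n = 3). Cow 3 alone supplied 73.7% of all members, and without it the mean of cows 1 and 2 was 7.41%. After thinning to 5000 UMIs the shares were 2.95%, 3.67% and 17.3%, with 586, 228 and 704 shallower cells left out, so cow 3 still had the highest share while cows 1 and 2 lay closer together.

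**Figure D1:**
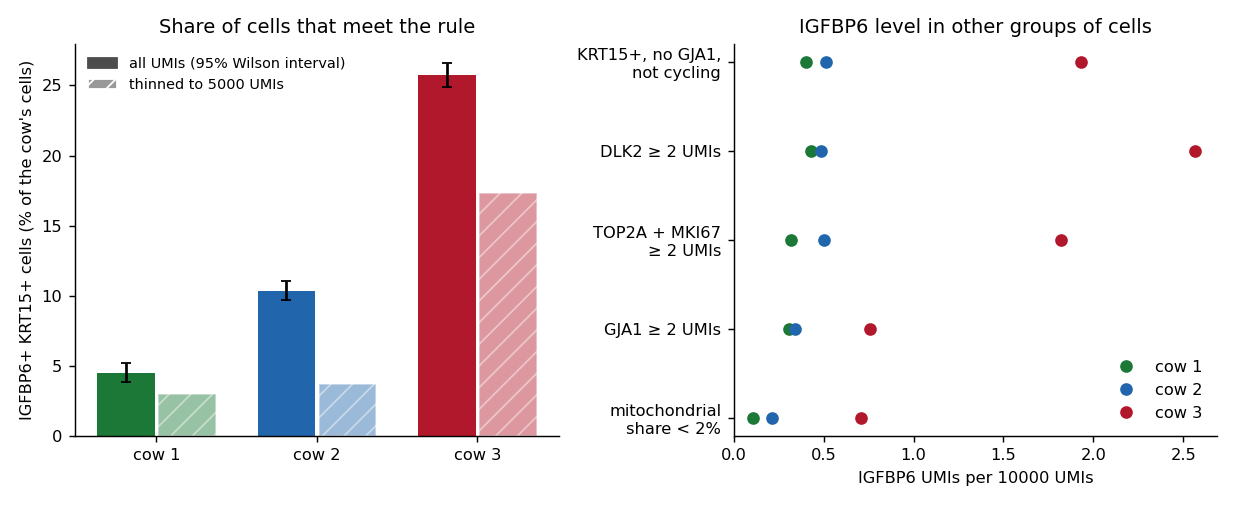
Left: bars give the share of each cow's cells that met the rule (y axis, percent), with all UMIs (solid, 95% Wilson intervals) and after thinning each cell to 5000 UMIs (hatched). Right: points give IGFBP6 UMIs per 10000 UMIs (x axis) in 5 overlapping sets of cells of each cow, and cow 3 (red) had the highest level in every set.

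The rule's steps removed few cells for want of KRT15. All 244, 926 and 3604 cells with at least 2 IGFBP6 UMIs also carried KRT15, which was missing from 18, 4 and 20 cells of the 3 cows in all. GJA1 was present in 64, 96 and 193 of the IGFBP6+ cells, and a further 30, 63 and 846 carried TOP2A or MKI67. Members therefore were 61.5%, 82.8% and 71.2% of the cells with at least 2 IGFBP6 UMIs. A member held a median of 3 IGFBP6 UMIs in each cow, and the highest member held 32, 29 and 43. Just inside the threshold lay 62, 318 and 819 members with exactly 2 IGFBP6 UMIs, and just outside it lay 216, 927 and 1551 cells with 1 UMI that met the other conditions.

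IGFBP6 was not particular to members in these libraries. Cells with at least 2 UMIs of GJA1, a set of suprabasal cells that the rule shuts out, carried 0.308, 0.342 and 0.756 IGFBP6 UMIs per 10000, and 20.2%, 28.0% and 44.6% of them had a UMI at median depths of 17544, 18822 and 14268 UMIs. Cells with at least 2 UMIs of TOP2A and MKI67 carried 0.320, 0.499 and 1.82 per 10000. The lowest level was found in cells with under 2% mitochondrial UMIs (0.108, 0.211 and 0.710 per 10000), of which 3.77%, 7.89% and 15.1% had a UMI at median depths of 2718, 4468.5 and 2918.5. No set of cells was known to lack IGFBP6 and so to give the level of free RNA, and a single IGFBP6 UMI was therefore not read as expression.

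Members were compared within each cow with cells that met the same conditions but had 0 IGFBP6 UMIs: 1919, 4626 and 3107 cells, called IGFBP6- cells below. UMIs were summed per cow and group, the cow was a term in the fit (edgeR quasi-likelihood, both sums of a pair being from the same animal), and a gene was called at an adjusted p under 0.05 with a log2 fold change beyond 0.25. The 5 genes of the rule were left out of the test. Members were deeper, with median UMIs of 13425.5, 14754 and 10224 against 8248, 10317 and 7829 in IGFBP6- cells. The median mitochondrial share was also higher, at 15.6%, 11.2% and 12.6% against 14.5%, 10.2% and 11.7%. At least 2 UMIs of the 23 listed S phase genes were found in 64.7%, 63.8% and 66.5% of members and in 46.9%, 50.8% and 49.5% of IGFBP6- cells. For this reason values from cells of 8000 to 16000 UMIs are printed as the depth-limited fold; in that range the medians were 11853, 12923 and 10630 against 10761, 11129 and 9943.5.

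Of 11107 genes tested, 483 (4.35%) were higher and 440 (3.96%) lower in members, 8.31% in either direction. Without cow 1 the counts were 108 and 155, without cow 2 127 and 218, and without cow 3 623 and 534. Among cells of 8000 to 16000 UMIs they were 59 (0.568%) and 80 (0.771%) of 10381 genes tested, the shares against which the depth-limited counts of the lists stand. In that range 913 of the 923 called genes were tested, 903 of these kept their direction, 130 were again called, and the folds had a median of 0.61 of their size over all depths. The median log2 fold change over all genes tested was -0.01.

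The label of a basal cell was checked with its markers. KRT15, which the rule used, stood at 57.0, 64.4 and 58.2 UMIs per 10000 in members of cows 1, 2 and 3 and at 46.4, 55.5 and 54.9 in IGFBP6- cells. CD109, a surface co-receptor that holds back TGF-beta signalling, had 0.36, 0.193 and 0.311 UMIs per 10000 in members against 0.278, 0.132 and 0.261. It rose in members (log2 fold change 0.42 ± 0.09 SE, adjusted p = 0.00655), and the depth-limited fold was 0.28 (adjusted p = 0.363). Its call ended without cow 1 (0.40, adjusted p = 0.0714) and without cow 2 (0.34, adjusted p = 0.168). A CD109 UMI was found in 38.0%, 24.6% and 27.0% of members and 20.3%, 12.9% and 17.8% of IGFBP6- cells, and after thinning to 5000 UMIs in 12.3%, 10.6% and 15.3% against 12.5%, 6.13% and 11.6%, so in cow 1 the thinned shares did not show the rise. CXCL14, a chemokine made by resting epithelium, had 0.840, 0.407 and 1.38 against 0.532, 0.319 and 1.12 (0.45 ± 0.09 SE, adjusted p = 0.00289), with a depth-limited fold of 0.07 (adjusted p = 0.905). Its call also ended without cells with 2 or more UMIs of the S phase list (0.41, adjusted p = 0.0688). After thinning to 5000 UMIs, a CXCL14 UMI was found in 24.7%, 15.8% and 42.4% of members and 20.1%, 12.8% and 33.8% of IGFBP6- cells.

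KRT19, a keratin of simple and basal epithelia, stood below the IGFBP6- cells in the members of each cow. Its level was 1.08, 1.36 and 3.91 UMIs per 10000 in members and 1.76, 1.53 and 4.56 in IGFBP6- cells. The log2 fold change was -0.28 ± 0.09 SE and missed the threshold (adjusted p = 0.0540), while the depth-limited fold of -0.34 passed it (adjusted p = 0.0267), as did the fold of -0.31 without cow 3 (adjusted p = 0.0305). A KRT19 UMI was found in 52.0%, 54.1% and 75.8% of members and in 55.1%, 57.8% and 75.4% of IGFBP6- cells. After thinning to 5000 UMIs these shares were 32.2%, 34.9% and 64.8% against 45.9%, 41.8% and 71.6%, which left out 4, 3 and 50 members and 458, 188 and 451 IGFBP6- cells. Against the 39 cells without IGFBP6 and KRT15, the rule's own comparison group, KRT19 went the other way: those cells held 1 UMI of it in each cow, or 0.138, 0.127 and 0.101 UMIs per 10000. Members stood at 7.85, 10.7 and 38.6 times these levels, with 95% exact Clopper-Pearson intervals for counting error of 1.4 to 312, 1.92 to 424 and 6.93 to 1526, and KRT19 was called as higher by edgeR over cows 1 and 3 (adjusted p = 8.83e-07). As those cells were chosen to lack KRT15, a basal keratin, this call does not test the basal label.

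The keratins of basal cells rose in members. KRT14, the type I partner of KRT5 in the basal layer, stood at 31.6, 35.2 and 51.6 UMIs per 10000 in members and 17.0, 24.7 and 37.8 in IGFBP6- cells (log2 fold change 0.67 ± 0.09 SE, adjusted p = 0.000222). KRT5 stood at 55.3, 49.2 and 75.7 against 33.6, 35.3 and 60.6 (0.56 ± 0.09 SE, adjusted p = 0.00061). KRT17, a keratin of basal appendage cells and of wounded epidermis, stood at 21.0, 22.1 and 26.2 against 11.6, 16.3 and 19.9 (0.62 ± 0.09 SE, adjusted p = 0.000509). Each of these genes was higher in members than in IGFBP6- cells of the same cow, and their depth-limited folds were 0.57, 0.50 and 0.54, all called. Without cow 2 the call of KRT5 ended (0.59, adjusted p = 0.176).

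Of 10 tested genes of the basal keratinocyte list, 5 rose and 0 fell, with a median log2 fold change of 0.39. Beside KRT5, KRT14 and KRT17 these were MT2A, a zinc-binding metallothionein (0.59), and CAV1, the coat protein of caveolae (0.89), which was named after its value was seen. TP63, the transcription factor of the basal lineage, had 0.992, 0.382 and 0.607 UMIs per 10000 in members and 1.13, 0.384 and 0.614 in IGFBP6- cells (log2 fold change -0.01, adjusted p = 0.963). Of the 10, 4 rose in the depth-limited cells. The one lost was MT2A (0.19, adjusted p = 0.614), whose call also ended without cow 1 (0.39) and without cow 2 (0.52), as did that of CAV1 without cow 1 (0.79, adjusted p = 0.0513), which stood at 1.34 without cow 3.

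Anchoring genes were mostly not called. Of 19 tested genes of hemidesmosomes and the basement membrane, 2 rose and 1 fell, with a median of -0.04. The laminin receptor subunit ITGA6 had 1.60, 0.922 and 1.18 UMIs per 10000 in members against 1.11, 0.711 and 1.07 (0.38, adjusted p = 0.00895). LAMB3, a chain of the laminin that epidermal cells lay down, had 0.942, 1.07 and 0.849 against 0.788, 0.812 and 0.731 (0.34, adjusted p = 0.00787). LAMB1, a chain of other laminins, fell (-0.48, adjusted p = 0.00188). At limited depth 1 of 19 rose, LAMB3 (0.35), and 0 fell: ITGA6 kept its fold (0.38, adjusted p = 0.129) and LAMB1 did not (-0.29, adjusted p = 0.337). The calls of ITGA6 (0.28 and 0.38) and LAMB3 (0.33 and 0.29) ended without cow 1 and without cow 2. The hemidesmosome genes COL17A1 and ITGB4, named after their values were seen, had log2 fold changes of -0.04 and 0.02 with adjusted p of 0.840 and 0.911.

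Within the keratins other than KRT15, 4 of 13 tested rose and 3 fell (median 0.19). Those that fell were the keratins of simple epithelia KRT7, KRT8 and KRT18, at log2 fold changes of -0.67, -0.57 and -0.73. Their depth-limited folds of -0.50, -0.41 and -0.57 were not called (adjusted p = 0.107, 0.0565 and 0.207), and KRT8 also lost its call without cow 1 (-0.53, adjusted p = 0.0607) and stood at -1.01 without cow 3. KRT8 stood at 0.134, 0.0645 and 0.538 UMIs per 10000 in members and 0.272, 0.139 and 0.670 in IGFBP6- cells. The fourth keratin to rise was KRT6A, known from activated and suprabasal keratinocytes, at 2.67, 2.40 and 3.33 against 0.931, 1.33 and 2.78. Its log2 fold change was 0.89 ± 0.15 SE (adjusted p = 0.00131) and the depth-limited fold 0.57 (adjusted p = 0.0415). The call ended without cow 1 (0.58, adjusted p = 0.0508) and with DESeq2 (0.95, adjusted p = 0.196). Reads may be shared by KRT6A and its close copy KRT6B, which was not tested, so this value is uncertain. KRT6B, counted apart, had 1, 55 and 182 UMIs in members and was not called (-0.02, adjusted p = 0.986). Against IGFBP6- cells, the rise of KRT6A and the lower KRT19 go partly against the label of a basal cell. So does the list of differentiation and cornification genes, which holds KRT6A: 7 of 17 tested rose and 1 fell. In its depth-limited cells 2 of 15 rose and 1 fell. Against the 39 cells KRT19 and KRT6A went with the label: KRT19 was called as higher and KRT6A as lower in members (-4.85, adjusted p = 2.43e-05). KRT5 was also called as higher. CXCL14 went the other way in each cow, at 0.840, 0.407 and 1.38 UMIs per 10000 in members against 1.65, 1.27 and 5.87. KRT14 was higher in members of cow 1 (31.6 against 22.4) and lower in those of cows 2 and 3 (35.2 and 51.6 against 71.4 and 176). The 39 cells were chosen to lack KRT15, itself a basal keratin, so that comparison cannot test the label. The members are therefore called by the genes of the rule.

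The levels also changed in steps with the number of IGFBP6 UMIs in a cell. From cells with 0, through 1, 2 and 3 to 4, to cells with 5 or more, the mean KRT14 level over cows was 26.5, 31.7, 34.8, 39.1 and 45.4 UMIs per 10000. KRT5 gave 43.2, 48.6, 54.4, 60.3 and 66.7, and KRT15 52.3, 55.1, 57.3, 61.2 and 61.6. KRT14 and KRT5 were higher in cells with 5 or more IGFBP6 UMIs than in cells with 0 in each cow. KRT19 gave 2.62, 2.67, 2.31, 2.25 and 1.74. Median depth rose over the same classes, from 8248 to 13531.5 UMIs in cow 1, 10317 to 15638 in cow 2 and 7829 to 10982 in cow 3, and its part in these steps was not tested.

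**Figure D2:**
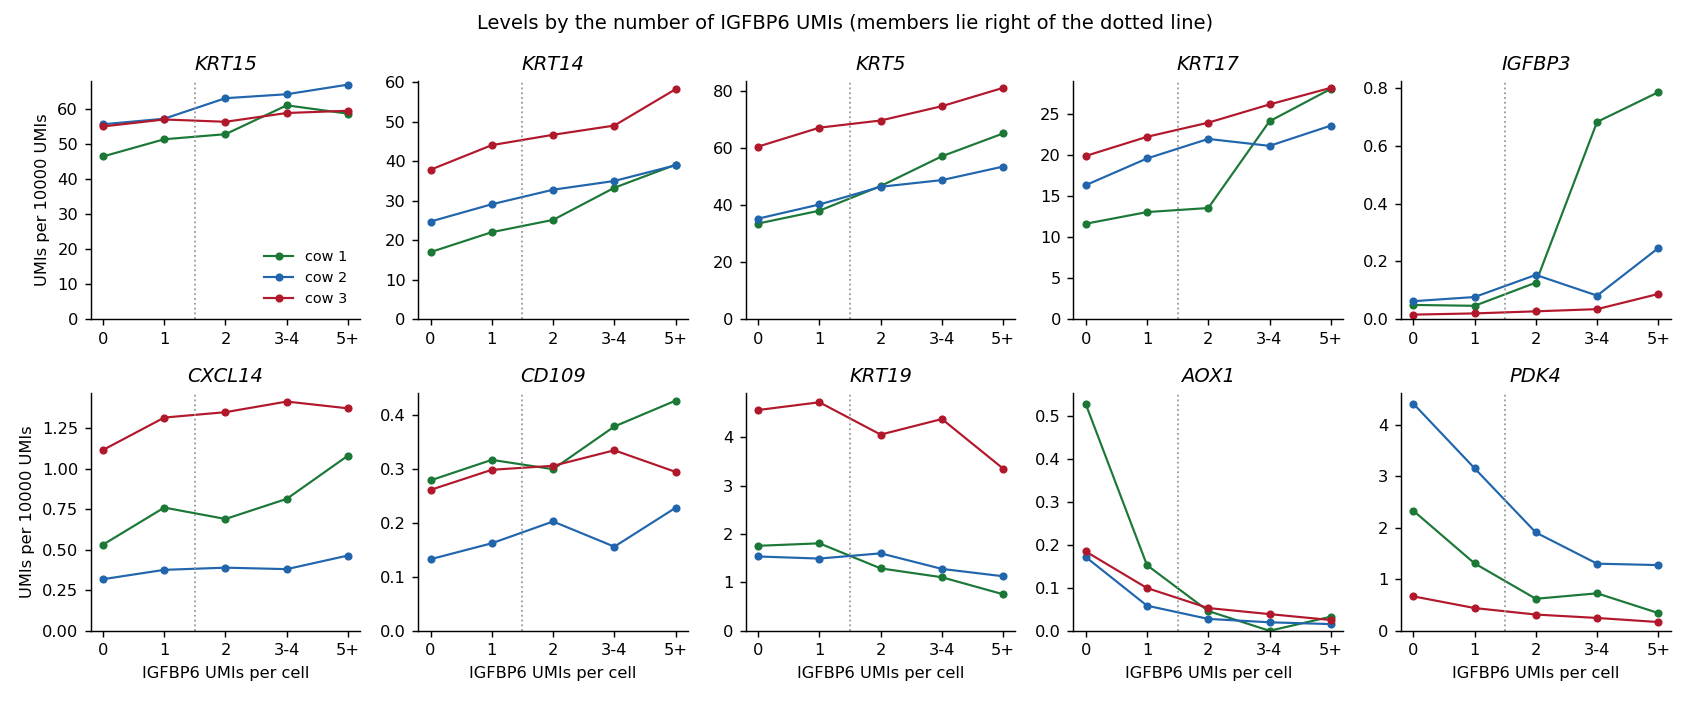
Each panel gives 1 gene's UMIs per 10000 UMIs (y axis, from 0) in cells with 0, 1, 2, 3 to 4 and 5 or more IGFBP6 UMIs (x axis), 1 line per cow. Members lie to the right of the dotted line. KRT14 and KRT5 climbed in all cows, AOX1 and PDK4 were highest in cells without IGFBP6, and KRT19 was lowest in the class of 5 or more.

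Among genes of the IGF axis, 1 of 10 tested rose, 0 fell and the median was 0.07. The gene was IGFBP3, which carries IGFs outside the cell, and it had the largest log2 fold change among the named genes that rose. It stood at 0.489, 0.154 and 0.0515 UMIs per 10000 in members, from 106, 184 and 142 UMIs, and at 0.0493, 0.0622 and 0.0157 in IGFBP6- cells. The level was highest in cow 1, where the members held 9.93 times that of the IGFBP6- cells, against 2.48 and 3.28 times in cows 2 and 3. The log2 fold change was 2.03 ± 0.25 SE (adjusted p = 7.34e-05) and the depth-limited fold 2.09 (adjusted p = 0.0003). IGFBP5, another IGF-binding protein, had 1.78, 1.45 and 1.58 UMIs per 10000 against 1.38, 1.18 and 1.67 (0.23, adjusted p = 0.147), so the cows did not share a direction, and without cow 3 it was called (0.41, adjusted p = 0.00125).

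SLC14A1, the urea transporter through which blood urea returns to the rumen, stood at 0.720, 0.607 and 0.597 UMIs per 10000 in members and 0.327, 0.240 and 0.392 in IGFBP6- cells. All 3 member sums lay above all 3 others (log2 fold change 1.05 ± 0.11 SE, adjusted p = 3.07e-05; depth-limited 0.58). LYPD3, a lipid-anchored surface protein of stratified epithelia, stood at 0.822, 0.977 and 0.489 against 0.342, 0.448 and 0.351 (0.96 ± 0.12 SE, adjusted p = 7.08e-05). LGALS3, the sugar-binding galectin 3, stood at 0.222, 0.245 and 0.272 against 0.182, 0.151 and 0.150, again without overlap (0.74 ± 0.09 SE, adjusted p = 7.32e-05), and its depth-limited fold was 0.80.

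TST, the sulfur-transferring enzyme rhodanese that turns cyanide into thiocyanate, stood at 7.05, 6.22 and 8.44 UMIs per 10000 in members against 3.44, 3.30 and 6.79 (log2 fold change 0.80 ± 0.11 SE, adjusted p = 0.000281). The calcium-binding S100A12 stood at 31.5, 28.2 and 23.4 against 15.7, 17.2 and 19.1, without overlap (0.73 ± 0.11 SE, adjusted p = 0.000459). The depth-limited folds of TST and S100A12 were smaller, at 0.52 and 0.42, and called. PRXL2A, an antioxidant protein (0.82), SULT1A1, which adds sulfate to phenols (0.76), SERPINB10, a protease inhibitor (0.73), CRIP1, a small zinc-binding protein (0.79), and C18H19orf33 (0.74) completed the named genes outside the cell cycle. SULT1A1 lost its call without cow 1 (0.66, adjusted p = 0.0644), and SULT1A1, PRXL2A and C18H19orf33 were not called at limited depth (0.49, 0.53 and 0.36), where SERPINB10 was called at 0.47. The excess in cow 3 was the smallest of the 3 cows for 11 of the 15 genes named as higher, among them KRT6A at 1.2 times against 2.87 and 1.81. Members were also compared with all other cells of the cow, where 68 of 11728 genes (0.58%) were higher and 308 lower. There 3 of the 15 stayed called: IGFBP3 (1.25), LGALS3 (0.49) and SERPINB10 (0.36). The other 12 were not called. Among them SLC14A1 had a fold of 0.03 (adjusted p = 0.982), LYPD3 of 0.30, TST of 0.19, S100A12 of 0.06 and MCM4 of 0.05, and KRT6A (-0.14), SULT1A1 (-0.32) and C18H19orf33 (-0.08) turned direction.

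**Figure D3:**
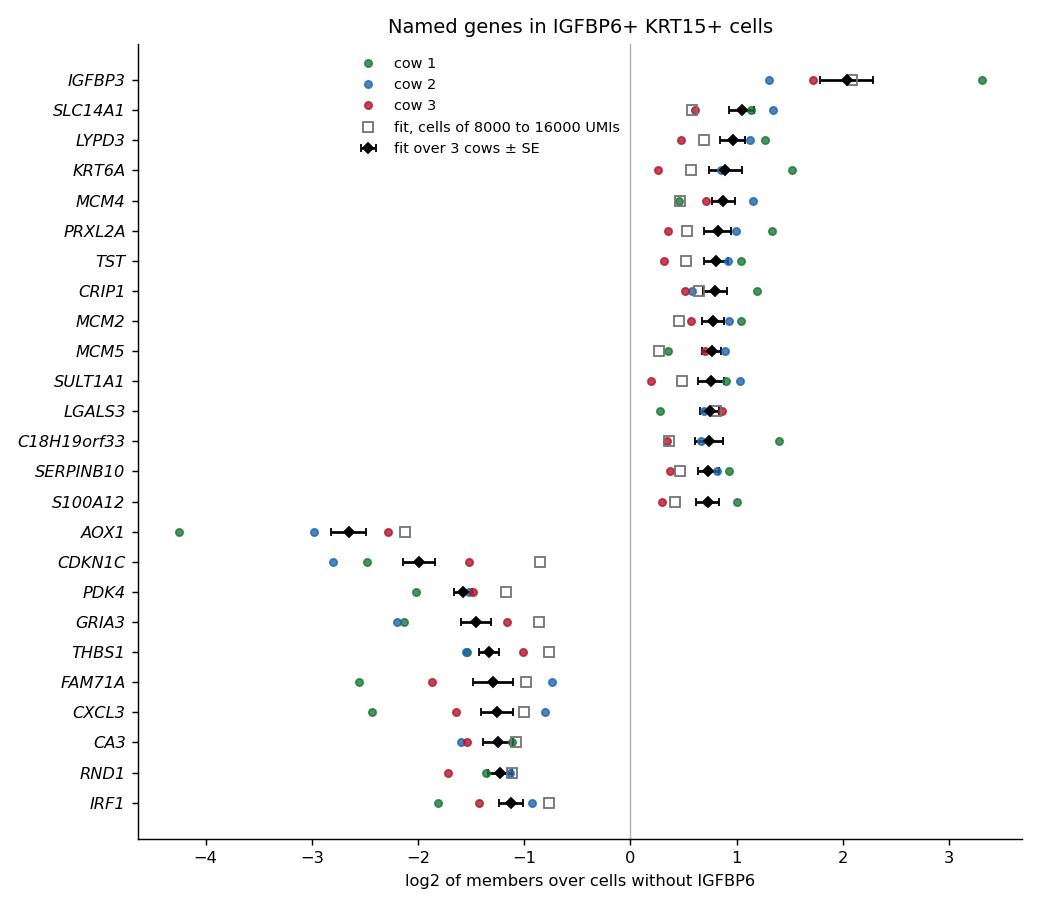
For the 15 genes named as higher and the 10 named as lower in members, coloured points give the log2 ratio of members over IGFBP6- cells in each cow (x axis), black diamonds the fitted log2 fold change over 3 cows ± SE, and open squares the fit in cells of 8000 to 16000 UMIs. All coloured points lie on the side of the fit, because the naming rule required it. Most squares lie nearer to 0 than the diamonds.

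Genes of differentiation and cornification were called mostly as higher: 7 of 17 tested rose, 1 fell, and the median was 0.25. Beside KRT6A and S100A12 the rise included S100A8, the calgranulin A gene, at 2.95, 1.76 and 2.31 UMIs per 10000 against 1.74, 1.24 and 2.30 (log2 fold change 0.46, adjusted p = 0.0152). KLF4, a transcription factor of barrier formation, fell, with 1.45, 3.06 and 0.745 against 2.83, 3.29 and 1.10 (-0.46, adjusted p = 0.0125). In the depth-limited cells 2 of 15 rose, KRT6A and S100A12, and 1 fell. The gene that fell there was GSTA1, a glutathione transferase (-0.86, adjusted p = 0.000133, against -0.16 and no call over all depths), named after its value was seen. GSTA1 was also called without cells with 2 or more UMIs of the S phase list (-0.68, adjusted p = 0.00286). At limited depth KLF4 was no longer called (-0.34, adjusted p = 0.0912). S100A8 had a fold of -0.05 in the same depth range, so its call ended and its direction turned. Without cow 1 the calls of S100A8 (0.28) and KLF4 (-0.30) ended, and without cow 2 that of S100A8 (0.43), whose fold was 0.71 without cow 3. Against all other cells of the cow S100A8 was called as lower (-0.55, adjusted p = 0.00131).

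Genes of VFA transport and metabolism showed the same split by depth. Over all depths 7 of 23 tested rose and 1 fell, with a median of 0.29. FABP5, a fatty acid binding protein, stood at 13.3, 14.7 and 19.1 UMIs per 10000 in members and 7.05, 7.97 and 16.4 in IGFBP6- cells (log2 fold change 0.73 ± 0.11 SE, adjusted p = 0.00063), with a depth-limited fold of 0.37 (adjusted p = 0.0421) and no call without cow 1 (0.58, adjusted p = 0.0652). BSG, the chaperone that brings monocarboxylate carriers to the membrane, stood at 10.1, 12 and 12.5 against 6.57, 7.19 and 11 (0.57, adjusted p = 0.00144). Its call ended at limited depth (0.31, adjusted p = 0.109), without cow 1 (0.49) and without cow 2 (0.47).

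SLC16A1, a monocarboxylate carrier itself, stood at 3.99, 3.35 and 3.87 in members against 3.23, 2.19 and 3.92, higher in cows 1 and 2 only (0.35, adjusted p = 0.0358). SLC16A7, another monocarboxylate carrier and the gene that fell, had a log2 fold change of -0.59 (adjusted p = 0.0443). In the depth-limited cells 1 of 22 rose, FABP5, 1 fell, and the median was 0.06. The gene that fell there was another one, the fatty acid binding protein FABP4 (-1.04, adjusted p = 3.18e-05, against -0.31 and no call over all depths), named after its value was seen. Over all depths FABP4 was called without cow 2 (-0.59, adjusted p = 0.00118). It was also called without cells with 2 or more UMIs of the S phase list (-1.13, adjusted p = 4.44e-05). Neither SLC16A1 (0.12, adjusted p = 0.821) nor SLC16A7 (-0.27, adjusted p = 0.819) was called at limited depth. Both also lost their calls without cow 1 (0.32 and -0.60), without cow 2 (0.21 and -0.38) and with DESeq2 (0.37 and -0.65), and stood at 0.55 and -0.98 without cow 3.

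Genes of S phase were higher in members although no member carried TOP2A or MKI67. Of 23 tested, 15 rose and 0 fell, with a median log2 fold change of 0.54. With DESeq2 8 rose and 0 fell, where 241 of all 11107 genes tested rose and 179 fell. MCM4, a subunit of the replicative helicase, stood at 0.115, 0.167 and 0.334 UMIs per 10000 in members and 0.0842, 0.0749 and 0.204 in IGFBP6- cells (0.87 ± 0.11 SE, adjusted p = 8.25e-05). Its partners MCM2 and MCM5 rose by similar amounts, with log2 fold changes of 0.77 and 0.76. At limited depth the calls of all these subunits ended, with folds of 0.47 for MCM4 (adjusted p = 0.127), 0.45 for MCM2 (adjusted p = 0.0954) and 0.27 for MCM5 (adjusted p = 0.449). MCM7, also of the helicase (0.38), RRM1, of the enzyme that makes deoxynucleotides (0.33), and TYMS, which makes thymidylate (0.54), rose too. Within each cow the members were higher for all of these 6 genes, which the naming rule required of MCM2, MCM4 and MCM5. The depth-limited folds of MCM7, RRM1 and TYMS were 0.32, 0.23 and 0.42 (adjusted p = 0.115, 0.551 and 0.0553).

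Of 21 S phase genes tested at limited depth 1 rose, RRM2, also of the deoxynucleotide enzyme (0.87, adjusted p = 0.0421; named after its value was seen), and the median was 0.32. Over all depths RRM2 had 0, 55 and 552 UMIs in members and 23, 69 and 211 in IGFBP6- cells, so cow 1 went the other way, and it was not called with DESeq2 (0.55, adjusted p = 0.973). RRM1 lost its call without any 1 of the 3 cows (0.30 to 0.37) and with DESeq2 (0.35, adjusted p = 0.203), and MCM7 without cow 2 (0.38) and with DESeq2 (0.38, adjusted p = 0.0576). Of 22 tested genes of G2 and mitosis, 1 rose and 0 fell (median 0.17). That gene was CENPF, a kinetochore protein (0.55, adjusted p = 0.00585), whose call ended at limited depth (0.60, adjusted p = 0.147), without cow 1 (0.55) and without cow 2 (0.33), and whose fold was 0.87 without cow 3. The rule removed every cell with TOP2A or MKI67 from both groups, so these values describe cells that had passed that filter.

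Some genes that hold the cell cycle back were lower. Of 12 tested genes of the list of cell cycle inhibitors and D cyclins, 6 fell and 1 rose, with a median log2 fold change of -0.44. CDKN1C, the p57 inhibitor of cyclin-dependent kinases, stood at 0.102, 0.0720 and 0.229 UMIs per 10000 in members and 0.567, 0.500 and 0.657 in IGFBP6- cells. The groups did not overlap (-1.99 ± 0.15 SE, adjusted p = 6e-07), the depth-limited fold was -0.86 (adjusted p = 0.0180), and without cow 3 the log2 fold change was -2.66. CDKN1A, the p21 inhibitor, stood at 0.337, 1.45 and 0.161 against 0.868, 1.71 and 0.364 (-0.74, adjusted p = 0.0035), and its call ended without cow 1 (-0.61, adjusted p = 0.109) and at limited depth (-0.46, adjusted p = 0.0515). Without cow 2 its log2 fold change was -1.19.

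The growth arrest genes GADD45A and GADD45B fell by 0.82 and 0.94 on the log2 scale, and the antiproliferative BTG1 by 0.71. GADD45A stood at 0.909, 3.40 and 0.935 against 2.48, 4.77 and 1.67, lower in members of each cow while cow 2 was the highest in both groups. The gene that rose was CCND1, cyclin D1 (0.31, adjusted p = 0.0207; depth-limited 0.04), and its call ended without cow 1 (0.25), without cow 2 (0.32) and with DESeq2 (0.34). Of the 12, 4 fell and 0 rose in the depth-limited cells.

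Immediate-early and stress genes, which many stimuli switch on within minutes, were lower in members: 13 of 19 tested fell and 2 rose, with a median log2 fold change of -0.67. JUN, a subunit of the AP-1 transcription factor, stood at 12.7, 31.8 and 7.17 UMIs per 10000 in members and 29.6, 46.7 and 13.6 in IGFBP6- cells (-0.84 ± 0.09 SE, adjusted p = 3.93e-05). JUNB stood at 3.79, 8.09 and 1.67 against 9.77, 12.6 and 3.46 (-0.96 ± 0.10 SE, adjusted p = 1.78e-05). EGR1, a zinc finger transcription factor, stood at 1.85, 6.17 and 0.536 against 5.78, 9.57 and 1.11 (-1.03 ± 0.12 SE, adjusted p = 5.02e-05).

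For these genes the range over cows was wider than the difference within a cow: cow 2 had the highest and cow 3 the lowest level of JUN, JUNB and EGR1 in both groups, and members were lower in each cow. The genes that rose, HSPA6 and HSPH1, encode heat shock proteins (0.46 and 0.33). Without cow 2 neither was called (0.38 and 0.18), and HSPH1 lost its call without cow 1 (0.42) and with DESeq2 (0.34). In the depth-limited cells 9 of 19 fell and 0 rose, and JUN, JUNB and EGR1 kept folds of -0.63, -0.65 and -0.74. Of the genes that had risen, HSPA6 stood at 0.42 there without a call (adjusted p = 0.114), and HSPH1 turned to -0.01.

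**Figure D4:**
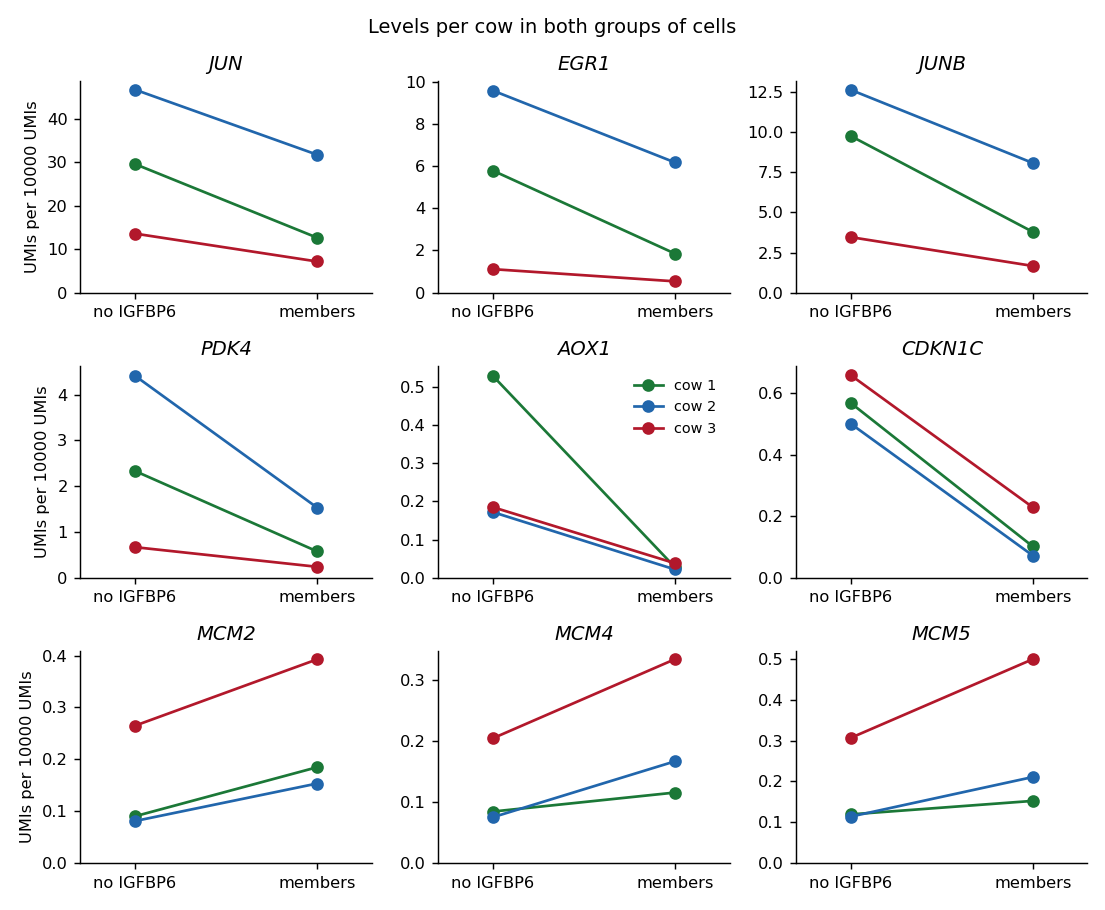
Each panel gives 1 gene's UMIs per 10000 UMIs (y axis, from 0) in IGFBP6- cells (left, "no IGFBP6") and members (right), 1 line per cow. JUN, EGR1, JUNB, PDK4, AOX1 and CDKN1C were lower and MCM2, MCM4 and MCM5 higher in the members of each cow. For all but JUN, EGR1 and JUNB the naming rule required the same direction in each cow.

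AOX1, aldehyde oxidase, stood at 0.0277, 0.0218 and 0.0380 UMIs per 10000 in members, from 6, 26 and 105 UMIs, and at 0.528, 0.172 and 0.185 in IGFBP6- cells. The groups did not overlap, and the log2 fold change of -2.65 ± 0.16 SE was the largest in size among the named genes (adjusted p = 2.97e-08; depth-limited -2.12; without cow 3 -3.26). PDK4, the kinase that shuts pyruvate dehydrogenase down when fat is burnt, stood at 0.577, 1.53 and 0.240 against 2.33, 4.41 and 0.668 (-1.58 ± 0.09 SE, adjusted p = 1.52e-08; depth-limited -1.18). CA3, a carbonic anhydrase, fell by 1.25, from 81, 3 and 74 UMIs in members and 1412, 39 and 198 in IGFBP6- cells, and cow 2 had few counts in both.

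THBS1, a matrix protein that can activate latent TGF-beta, stood at 0.448, 0.248 and 0.0649 against 1.3, 0.724 and 0.131 (-1.33 ± 0.09 SE, adjusted p = 2.39e-07; depth-limited -0.76). CXCL3, a chemokine for neutrophils, stood at 0.0877, 1.04 and 0.148 against 0.473, 1.82 and 0.462 (-1.26 ± 0.15 SE, adjusted p = 5.13e-05). Reads may be shared with its close relatives, which was not tested, so the gene is uncertain. IRF1, an interferon-responsive transcription factor (-1.12), RND1, a small GTPase that loosens the actin skeleton (-1.22), GRIA3, a glutamate receptor subunit (-1.45; depth-limited -0.87), and FAM71A (-1.29, and -2.08 without cow 2) made up the rest of the named genes. All 10 genes named as lower were also called in the depth-limited cells.

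Of 13 tested chemokines and cytokines, 3 fell and 1 rose, with a median of 0.02. Apart from CXCL3 these were IL6, an inflammatory cytokine (0.00923, 0.0988 and 0.00326 UMIs per 10000 against 0.0315, 0.279 and 0.00588, -1.40, adjusted p = 4.09e-05), and the membrane-bound chemokine CX3CL1 (-0.33, adjusted p = 0.00987). The gene that rose was CXCL14. In the depth-limited cells 0 of 12 rose and 2 fell, CXCL3 (-1.0) and IL6 (-1.22), while CX3CL1 had a fold of -0.08 (adjusted p = 0.900). IL6 lost its call without cow 2 (-1.09, adjusted p = 0.457), and CX3CL1 without cow 1 (-0.33), without cow 2 (-0.35) and with DESeq2 (-0.31).

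In the TGF-beta list 3 of 21 tested rose and 2 fell (median -0.10): CD109, ID1, an inhibitor of differentiation factors (0.56, adjusted p = 0.000958), and TGFB1, the ligand (0.35, adjusted p = 0.0492), rose, while the receptor TGFBR2 (-0.49) was among those that fell. At limited depth 4 of 21 rose and 0 fell: ID1 (0.45), TGFB1 (0.53) and the relatives of ID1, ID2 (0.46) and ID3 (0.80), which were not called over all depths with 3 cows and were named after their values were seen. ID3 was called over all depths without cow 2 (0.61, adjusted p = 0.0212). TGFB1 (0.39, 0.45 and 0.19) and TGFBR2 (-0.48, -0.47 and -0.55) lost their calls without cow 1, 2 or 3, and with DESeq2 (0.35 and -0.50). TGFBR2 stood at -0.43 at limited depth (adjusted p = 0.385). In the Notch list 1 of 11 rose and 2 fell (median -0.14). The ligands DLL1 and JAG1 fell: DLL1 stood at 0.249, 0.496 and 0.415 UMIs per 10000 in members and 0.779, 0.935 and 0.559 in IGFBP6- cells, without overlap (-0.79, adjusted p = 0.000388), and JAG1 had a fold of -0.30. The receptor NOTCH3 rose, at 0.0831, 0.0527 and 0.0598 against 0.0229, 0.0250 and 0.0435 (0.90, adjusted p = 0.00914). NOTCH3 lost its call without cow 1 (0.74), and JAG1 without cow 1 (-0.23), without cow 2 (-0.27) and with DESeq2 (-0.29). The depth-limited folds were -0.26 for DLL1 (adjusted p = 0.473), -0.19 for JAG1 (adjusted p = 0.489) and 0.57 for NOTCH3 (adjusted p = 0.377), none called.

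DLK2, a non-canonical Notch ligand that the study used to mark its granule cells, had 0.812, 0.688 and 0.480 UMIs per 10000 in members against 1.05, 1.08 and 0.471 (-0.28, adjusted p = 0.0903), and its depth-limited fold was 0.16. It was called as lower without cow 3 (-0.47, adjusted p = 0.000376). In the WNT list 2 of 20 rose, the ligand WNT7B (0.59) and the secreted DKK3 (0.66), and 2 fell, the receptor-removing ligase ZNRF3 (-0.68) and the transcription factor TCF7L2 (-0.37), with a median of -0.10. WNT7B lost its call without cow 1 (0.51), DKK3 without cow 1 (0.64) and without cow 2 (0.41), and TCF7L2 without cow 2 (-0.34) and with DESeq2 (-0.36). In the depth-limited cells 0 genes of the Notch and WNT lists were called. DKK3 stood at 0.56 there (adjusted p = 0.108), WNT7B at 0.40 (adjusted p = 0.478), ZNRF3 at -0.41 (adjusted p = 0.129) and TCF7L2 at -0.24 (adjusted p = 0.358). Of 35 cytosolic ribosomal protein genes, 0 were called, and their median was 0.01.

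**Figure D5:**
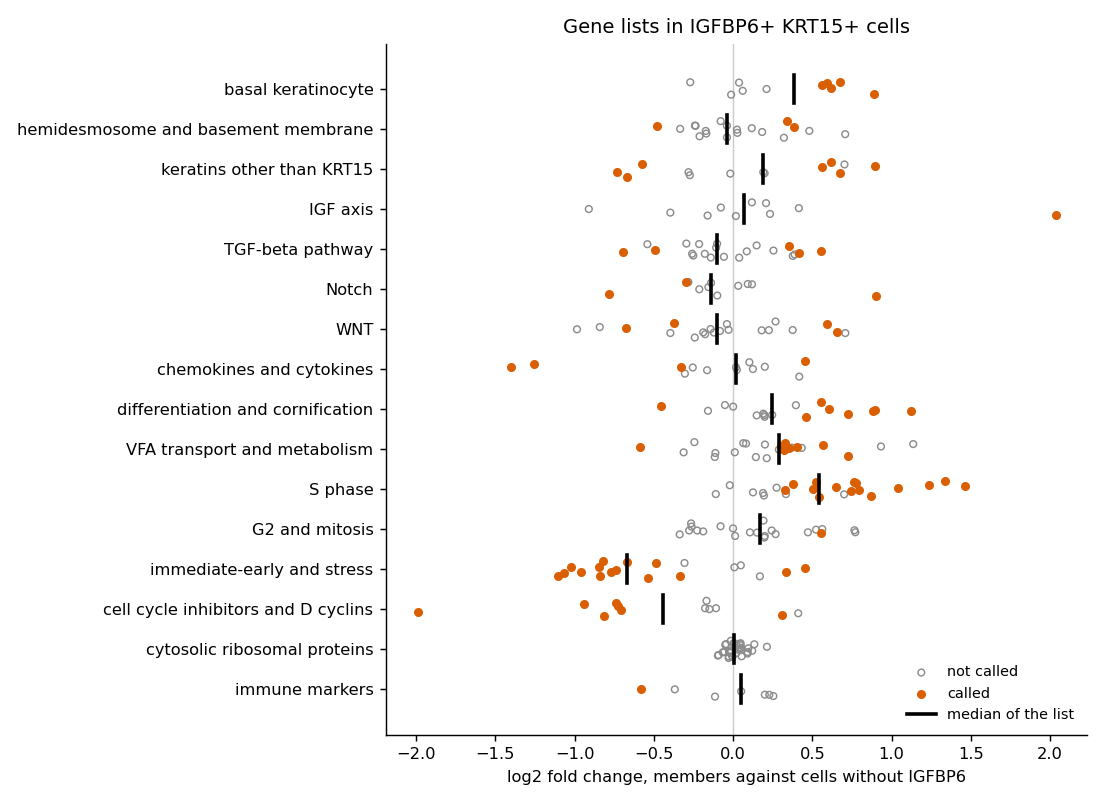
Each point is 1 tested gene of a list, placed by its log2 fold change in members against IGFBP6- cells (x axis), filled where called, and black bars mark the median of each list (y axis). The S phase list lay to the right with a median of 0.54, the immediate-early list to the left with -0.67, and ribosomal proteins gathered around 0.

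Markers of fibroblasts, smooth muscle, endothelium, melanocytes and nerve were near 0, and immune markers lay higher. The authors had already discarded the other cell types, so low levels of these markers do not test the identity of the members. Of 11 fibroblast genes in the files, 1 passed the filter on low counts and 0 were called, and their summed level was 0.00923, 0.0234 and 0.0395 UMIs per 10000 in members against 0.0189, 0.0361 and 0.0451. COL1A1, the main fibroblast collagen, had 0 UMIs in every sum. Sums for 7 smooth muscle genes ran from 0.00462 to 0.0134 in members, for 8 endothelial genes from 0.0285 to 0.0369, and for 5 melanocyte and neural genes from 0.0444 to 0.0728. For these lists 1, 1 and 2 genes were tested and 0 were called. The 17 immune genes summed to 0.365, 0.343 and 0.307 in members and 0.470, 0.496 and 0.330 in IGFBP6- cells, most of it CD14 and AIF1. Of these genes 7 were tested, 0 rose and 1 fell, the monocyte receptor CD14 (0.212, 0.223 and 0.0953 against 0.353, 0.361 and 0.134, -0.58, adjusted p = 0.000429; depth-limited -0.46, adjusted p = 0.0590). PTPRC, the pan-leukocyte marker, had 0, 3 and 7 UMIs in the member sums.

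The rule's own comparison group, cells with 0 UMIs of IGFBP6 and of KRT15, held only 39 cells: 17, 4 and 18 of cows 1, 2 and 3. Those of cows 1 and 3 were shallow, with median UMIs of 2279 and 3447 and mitochondrial shares of 0.957% and 0.196%, whereas the 4 cells of cow 2 had medians of 23917 UMIs and 12.9%. Cow 2 had under 10 such cells, so the test used cows 1 and 3 only, and cow 2 is given as values. Of 6318 genes tested, 90 (1.42%) were higher and 170 (2.69%) lower in members, 4.12% in either direction.

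Against these cells, members carried the retinol carrier RBP4 at 14.1, 11.9 and 13.9 UMIs per 10000, where the 39 cells had 0.55, 6.11 and 0.405, and cow 2 lay between the other cows' values and the members. KRT5 stood at 55.3, 49.2 and 75.7 against 5.36, 16.2 and 19.6 (log2 fold change 2.87 ± 0.83 SE, adjusted p = 0.0175). KRT14 had 31.6, 35.2 and 51.6 against 22.4, 71.4 and 176, and was not called (adjusted p = 0.900). The secreted surface protein BPIFA2C stood at 0.212, 0.0285 and 0.0406 in members against 126, 8.53 and 172. KRT6A stood at 2.67, 2.40 and 3.33 against 65.5, 36.8 and 158. Both BPIFA2C and KRT6A were called as lower in members. These genes were chosen after their values were seen.

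The other genes lower in members by the naming rule were A2ML1 and SPINK5, protease inhibitors of the outer epidermis, GJB2, a connexin, PI3, an elastase inhibitor, FUT6, LY6G6C, TMPRSS11BNL, PIP and C7H5orf46. SPINK5 had 0 UMIs in the members of all 3 cows and 24, 0 and 48 in the 39 cells. Against a floor of 3 UMIs per sum, it was at least 238-fold and 4467-fold lower in the members of cows 1 and 3. The 15 genes named as higher, led by ARID5B, LAMB3 and RAB34, all had 0 UMIs in the compared sums of cows 1 and 3. Against the floor of 3 UMIs their ratios ran from 0.65 to 3.27, so at this depth no large difference was shown for them.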

How the data were processed

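Per the paper's methods and the submitters' processing notes, the authors aligned reads to the cattle assembly ARS-UCD1.2 with Ensembl 99 genes, built UMI counts with Cell Ranger 3.1.0, filtered cells on genes, UMIs and mitochondrial share, looked for doublets with DoubletFinder and kept epithelial clusters. The deposited raw matrix holds UMI counts per gene and cell, and the other deposited tables hold natural log values of 1 plus UMIs scaled to 10000 per cell. The latter served only to name the rows of the count matrix: 19533 rows matched within 1e-06. Cow and library were read from the barcode suffix, taken as the number in the sample title, and 0 columns of per-sample values were left unused.

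UMIs were summed per cow and group. Levels are UMIs per 10000. Tests used edgeR 4.0.16 in R 4.3.3 (quasi-likelihood, TMM, filterByExpr, Benjamini-Hochberg over all genes tested). The SE of a log2 fold change was its absolute value divided by the square root of the test's F statistic. Cow was a block because both sums of a pair came from 1 animal, and the deviations of same-cow sums correlated at 0.530, 0.714 and 0.736. With simulated counts for the comparison with IGFBP6- cells (11257 genes), 100% of genes changed 1.5-fold or 2-fold and 78% of those at 0.75-fold were recovered, with 0.0181% false calls. The simulation gave all genes the same dispersion and each cow the same change, and it did not model the depth of cells. It therefore does not give the rate of false calls in the real counts. No doublet caller was run here. An alternative left out the deepest 5% of cells. Shares carry 95% Wilson intervals, which, like the floor of 3 UMIs, cover counting error only.

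The members and gene lists were chosen with earlier results of these data known. Genes were named by rule: the 15 highest and 10 lowest log2 fold changes among called genes with the same direction in each cow tested, a symbol and a mean of 20 CPM in the higher group, the 5 markers, and up to 4 called genes per list. Others are marked as chosen after their values were seen, and so were KRT7, KRT8, KRT18, CCND1, SLC16A7, HSPA6, HSPH1, TP63, DLK2, ID2, ID3 and IGFBP5. Some results on single listed genes are not reported here. There was 1 library per cow. As cow was a term in the fit, differences in level between cows do not enter the p-values. With all cows in the fit, the p-values and SEs rest on differences within 3 animals, with variance estimates that edgeR shares across genes. They therefore do not measure the spread of a single gene's difference among the 3 cows. For the rule's own comparison group they rest on cows 1 and 3 only.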

Additional observations from a re-analysis of the deposited data

How the results depend on the processing

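DESeq2 1.42.0 in place of edgeR called 241 genes higher and 179 lower in members than in IGFBP6- cells. With no replicate block, that is without the cow as a term for the pairing, edgeR called 0 and 0 (104 and 176 at an unadjusted p under 0.05). Leaving out each cow in turn gave 108 to 623 higher and 155 to 534 lower. Cells of 8000 to 16000 UMIs gave 59 and 80, and all other cells of the cow as the comparison gave 68 and 308. Leaving out cells with 2 or more UMIs of the S phase list, an alternative chosen after seeing the data, gave 174 and 172, and S phase genes are not read there, since they choose the cells. RLE scaling, no filter on low counts, at least 3 UMIs of IGFBP6, a mitochondrial share under 20% and omission of the deepest 5% of cells kept both counts within 1.5 times. Against all other cells of the cow 11 named genes turned direction: KRT6A (-0.14), SULT1A1 (-0.32), C18H19orf33 (-0.0767), HSPH1 (-0.0927), CX3CL1 (0.0162), S100A8 (-0.55), SLC16A1 (-0.12), RRM1 (-0.37), RRM2 (-0.84), TYMS (-0.29) and CENPF (-2.12). Of these, S100A8 (adjusted p = 0.00131), RRM2 (adjusted p = 0.0116) and CENPF (adjusted p = 6.96e-07) were called as lower there. That comparison takes in cycling and GJA1+ cells. In the depth range, of the named genes called over all depths, S100A8 (-0.0482) and HSPH1 (-0.0144) turned. Over all alternatives, the 73 named genes called in this comparison kept direction and call in 691 values, lost the call in 238 and turned in 13. The 10 named but not called (TP63, COL17A1 and DLK2 among them) gained a call in 23 of 130 values and had the opposite sign in 17.

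Against the 39 cells, DESeq2 called 29 higher and 103 lower, no replicate block gave 22 higher, and a mitochondrial share under 20% gave 54 higher. Leaving out a cow would leave 1 pair there and was not run. The mean share of members was 25.0% with at least 1 UMI of IGFBP6, 8.74% with at least 3 and 7.97% after thinning, and 7.41% to 18.1% with each cow left out. Where no cause is given, the cause was not tested. Depth limits the members of cow 1, 150 cells with 2166673 UMIs, and the 39 cells most of all.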

Other observations

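Cells with IGFBP6 that the rule left out were also seen among cycling cells. In cells with at least 2 IGFBP6 UMIs, 18.0%, 8.42% and 25.2% in cows 1, 2 and 3 carried TOP2A or MKI67, against 13.6%, 6.36% and 19.2% of cells with 0 IGFBP6 UMIs, and depth was not matched in these shares. GJA1 was carried by 26.2%, 10.4% and 5.36% of the former and 21.4%, 8.21% and 8.37% of the latter, so cow 3 went against the other cows. Among cells with at least 2 UMIs of MCM5 and MCM3 and none of TOP2A or MKI67, IGFBP6 stood at 0.593, 0.767 and 2.21 UMIs per 10000, against 0.375, 0.504 and 1.83 over all cells, and 11.8%, 25.9% and 46.7% of them were members. Among cells with at least 2 UMIs of DLK2, 6.13%, 10.5% and 38.0% were members, and their IGFBP6 level was 0.432, 0.485 and 2.57 per 10000. These shares are descriptions, with no test, and depth was not matched. Median depths were 16050, 19084.5 and 13069 UMIs in the cells chosen by MCM5 and MCM3. They were 9368, 10833 and 9247 in those chosen by DLK2, and 10342, 12051 and 9747 over all cells.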
